A study of Mus musculus with 16 samples.

Results

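The Siglec family was followed as 7 of the 47643 genes counted in each of 16 mouse libraries: Siglecf, Siglece, Siglecg, Cd33, Cd22, Siglec1 and Siglech. They were chosen by name, and their Ensembl identifiers were matched to symbols with GENCODE M21 on GRCm38. All cells came from wild-type C57BL/6 mice. BALF are cells washed from the airspaces by bronchoalveolar lavage, PLF are cells washed from the peritoneal cavity, BMDM are macrophages derived from bone marrow, and mexAM are alveolar macrophages cultured ex vivo. Mice 1, 2 and 4 each gave 1 library to each of these 4 groups. The other 4 libraries are ex vivo cultured alveolar macrophages of pool 1 at passages 8 and 13 and of pool 2 at passages 5 and 10. The lower passage of each pool is called earlier here and the higher one later. Not given in the sources used here are the age of the mice, the passage of the single-mouse mexAM cultures and the number of animals in a pool.

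Siglecs are membrane lectins of the immunoglobulin superfamily that bind sialic acids, the acidic sugars that cap many glycans. Most members carry inhibitory tyrosine motifs in the cytoplasmic tail and recruit phosphatases such as SHP-1, while a few pair with the activating adaptor DAP12 or have no signalling motif of their own. Siglecf is used as a surface marker of mouse alveolar macrophages and eosinophils, Cd22 and Siglecg are best known as inhibitors of B cell receptor signalling, Siglec1 (sialoadhesin) is an adhesion receptor of tissue macrophages, and Siglech marks plasmacytoid dendritic cells.

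On GRCm38, 6 of the 7 genes lie on chromosome 7 and Siglec1 lies on chromosome 2. Siglecf (ENSMUSG00000039013, chr7:43351341-43359531, plus strand), Siglecg (ENSMUSG00000030468, chr7:43408204-43418358, plus strand), Cd33 (ENSMUSG00000004609, chr7:43524216-43544428, minus strand) and Siglece (ENSMUSG00000030474, chr7:43651070-43660161, minus strand) share a stretch of 308821 bases. Cd22 (ENSMUSG00000030577, chr7:30865402-30880342, minus strand) and Siglech (ENSMUSG00000051504, chr7:55768178-55778925, plus strand) lie elsewhere on the chromosome, and Siglec1 (ENSMUSG00000027322) spans chr2:131069220-131086765 on the minus strand. All are protein coding. The only annotated gene overlapping one of them, Gm29439 on the strand opposite Cd22, had 0 counts in the 16 libraries.

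RefSeq promoter windows on GRCm38.p6 were held for 6 of the 7 genes, and the stretches upstream of the transcription start are shown for 4 of them, Siglecf, Cd33, Cd22 and Siglecg. Each is written 5′ to 3′ on the gene's strand, cut to bases that lie in no annotated exon. The Siglecf stretch is chr7:43351091-43351340 and that of Siglecg is chr7:43407989-43408203. Those of Cd33 (chr7:43533172-43533364) and Cd22 (chr7:30879029-30879176) lie inside the annotated genes, upstream of an internal start. Capitals mark matches to a short motif.
Siglecf: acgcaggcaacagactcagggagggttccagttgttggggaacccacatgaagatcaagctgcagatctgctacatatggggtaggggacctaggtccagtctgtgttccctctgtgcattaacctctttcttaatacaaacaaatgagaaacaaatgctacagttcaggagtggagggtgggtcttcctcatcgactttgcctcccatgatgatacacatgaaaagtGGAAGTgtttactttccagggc
Cd33: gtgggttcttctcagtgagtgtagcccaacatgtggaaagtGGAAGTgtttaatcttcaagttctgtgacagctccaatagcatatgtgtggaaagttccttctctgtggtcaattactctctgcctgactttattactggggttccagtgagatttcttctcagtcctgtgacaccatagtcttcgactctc
Cd22: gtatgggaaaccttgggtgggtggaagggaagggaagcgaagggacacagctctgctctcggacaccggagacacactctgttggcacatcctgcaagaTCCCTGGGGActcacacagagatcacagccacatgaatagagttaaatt
Siglecg: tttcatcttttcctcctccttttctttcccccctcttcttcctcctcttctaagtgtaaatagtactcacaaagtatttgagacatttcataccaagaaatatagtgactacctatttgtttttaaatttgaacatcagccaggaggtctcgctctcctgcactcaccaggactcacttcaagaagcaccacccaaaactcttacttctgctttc
The 8 motifs searched on both strands of the 250 bases before each start were the ETS core GGAAGT, the AP-1 site TGANTCA, the E-box CACGTG, the C/EBP site TTGCNNAA, the nuclear receptor site AGGTCA, the EBF site (TCCC and GGGA with 2 free bases between), the GATA site AGATAA and the TATA box TATAAA. Siglecf and Cd33 each held 1 match, to the ETS core, which begins 22 bases before the Siglecf start and 152 bases before the Cd33 start. This motif occurred in 19.7% of all 32851 mouse windows of that length. Both matches sit in a run of 16 bases, AAAGTGGAAGTGTTTA, which was the longest run shared by any 2 of these genes' windows and was found in 2 of the 32851 windows, those of Siglecf and Cd33. Cd22 held 1 match to the EBF site, 49 bases before its start, a motif present in 0.779% of windows. The Siglecg window held 1 match to the nuclear receptor site, found in 4607 windows, and it lies outside the exon-free stretch shown. The Siglech window, not shown, held 3 matches, to the ETS core, the E-box and the C/EBP site. The Siglece window, also not shown, held 0. The AP-1, GATA and TATA letters were in none of the 7 windows of these genes, against 6.75%, 9.99% and 12.4% of all windows. Motif matches overlapped no other motif in the stretches shown, and a match is a description of letters only.

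Counts in genes ran from 827791 to 2884679 per library, so 1 count equals 0.347 to 1.21 CPM, the counts scaled to 1 common total for all libraries. The libraries read the 3′ ends of messenger RNA, so a transcript's length does not set its count and CPM were not divided by length. All 7 genes had counts, and 5 passed the filter on low counts in every fit, Siglece and Siglech being left out. Siglecg passed only through its counts in PLF. The labelled cell types were checked on marker lists. The 15 alveolar macrophage genes summed to 11695 to 16442 CPM in BALF, 11358 to 14369 CPM in mexAM and 8956 to 10731 CPM in the pools, against 344 to 630.0 CPM in BMDM and 1179 to 1622 CPM in PLF. Other cells were present in PLF, where 14 B cell genes summed to 2853 to 3276 CPM and 9 mast cell genes to 2000.3 to 2213 CPM. Neutrophil genes summed to 2931, 1989.9 and 5594 CPM in BMDM of mice 1, 2 and 4. They summed to 70.9 to 103 CPM in BALF, 300.2 to 785 CPM in mexAM and 296 to 496 CPM in the pools. S100a8 led this list in BALF (46.2 CPM on average), mexAM (280) and the earlier pools (270), and Cxcr2 led it in the later pools (191). Ly6g, Mpo and Elane were at 0 counts in mexAM and the earlier pools. Mpo and Elane were at 0 in the later pools, and Elane was at 0 in BALF. The erythroid and platelet genes summed to 39.6 to 644 CPM in BALF, led by Hbb-bs, and to 843 to 947 CPM in BMDM and 1599.9 to 2087 CPM in PLF. Pf4 alone averaged 888 of 902 CPM in BMDM and 1871 of 1899 CPM in PLF, so the sums there rest on 1 gene. In mexAM they summed to 1.46 to 5.81 CPM. Because these are bulk samples, fewer cells of a type and less RNA per cell cannot be told apart in any value below.

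Summed over the 7 genes, the lung-derived cells carried the most Siglec transcripts, and most of that sum was Siglecf. The 7 genes together held 433, 439 and 313 CPM in BALF of mice 1, 2 and 4 and 796, 778 and 638 CPM in mexAM. The pools held 627 and 907 CPM at the earlier passages and 729 and 876 CPM at the later ones, for pools 1 and 2. BMDM held 217, 142 and 96.2 CPM and PLF held 125, 207 and 232 CPM, so no library of these groups reached the lowest of the lung-derived ones. On average Siglecf gave 272 of 395 CPM in BALF and 520 of 737 CPM in mexAM. In BMDM it gave 3.44 of 152 CPM and in PLF 7.10 of 188 CPM. Without Siglecf, the mean of BALF was not above those of BMDM and PLF. The sum and the make-up of the family are therefore not separate results. Siglecf made up 68.9% ± 2.70 (SD, n = 3) of the family's counts in BALF, 70.6% ± 1.34 in mexAM and 55.9% to 75.1% in the pool libraries, against 2.99% ± 2.99 in BMDM and 3.76% ± 2.03 in PLF. Cd33 was the leading member in BMDM, with 77.4% ± 18.6, and in PLF, with 52.4% ± 11.1. Siglecg added 22.7% ± 1.35 and Cd22 20.6% ± 8.46 of the family's counts in PLF, as the plot of shares by library shows.

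**Figure D1:**
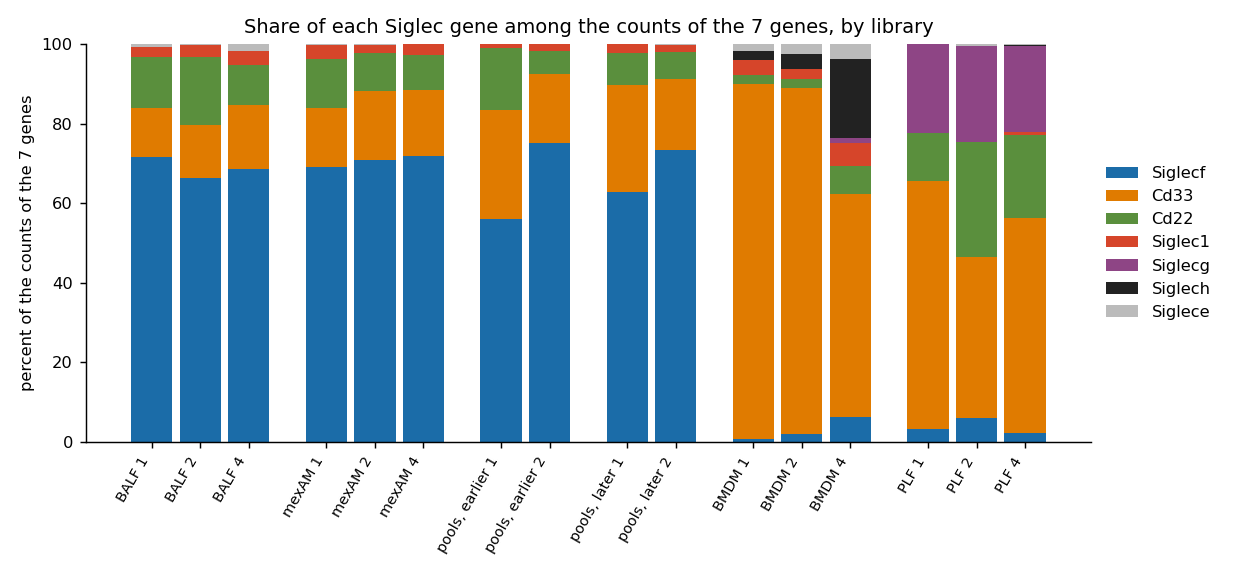
Percent of the counts of the 7 Siglec genes that fell on each gene, 1 bar per library. The numbers are mice 1, 2 and 4 or pools 1 and 2. Siglecf fills 55.9% to 75.1% of every bar from lung-derived cells, while Cd33 leads in BMDM and PLF.

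Siglecf, the inhibitory lectin that marks alveolar macrophages, was abundant in every lung-derived library and near the floor elsewhere. It was at 310.0, 291 and 215 CPM in BALF of mice 1, 2 and 4 and at 551, 550.3 and 458 CPM in mexAM. The pools held 351 and 681 CPM at the earlier and 458 and 643 CPM at the later passages. BMDM held 1.45, 2.74 and 6.13 CPM, and PLF 3.89, 12.5 and 4.93 CPM. All lung-derived libraries stood above all BMDM and PLF libraries, and all mexAM libraries stood above all BALF libraries. The fitted log2 change was +7.34 ± 0.39 (standard error) for mexAM against BMDM (adjusted p = 1.4e-10) and +6.31 ± 0.37 for mexAM against PLF (adjusted p = 3.2e-10). BALF gave +6.60 ± 0.39 against BMDM (adjusted p = 1.1e-09) and +5.58 ± 0.36 against PLF (adjusted p = 2.6e-09). With 17 counts in BMDM and 28 in PLF, Siglecf passed the filter through the lung-derived groups. These calls therefore follow largely from the filter and add little to the levels. PLF and BMDM, the lowest of the groups, overlapped and did not pass the test (+1.02 ± 0.51, adjusted p = 0.128).

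Siglecf was also higher in mexAM than in the fresh BALF cells, by +0.73 ± 0.26 on the log2 scale (adjusted p = 0.0426, 3 mice each). With the mouse as a block the change was the same size, +0.73, and missed the threshold (adjusted p = 0.0522). It also missed the threshold without BALF of mouse 1, 2 or 4 or mexAM of mouse 1 or 2, with log2 changes of +0.60 to +0.85. The BALF libraries of mice 2 and 4 carried more haemoglobin transcripts than that of mouse 1, and with BALF of mouse 1 alone the change was +0.53 (adjusted p = 0.423). The part of these transcripts in the result was not tested beyond that value, nor was that of the neutrophil list, which summed higher in every mexAM and pool library than in any BALF library. The pools exceeded BALF by +0.77 ± 0.29, which did not pass (adjusted p = 0.0581). It did pass with library totals as the only scaling (+0.97, adjusted p = 0.0192), with DESeq2 (+0.74, adjusted p = 0.0438) and without the filter on low counts (+0.80, adjusted p = 0.00430). The other fits with more than 1 sample in each group did not pass. Over 13 alternatives the change ran from +0.41 to +1.07. The pools differed from mexAM by +0.04 ± 0.29 (adjusted p = 0.985). Eosinophils also carry Siglecf. Of the 6 eosinophil genes, Epx, Prg2, Prg3 and Il5ra were at 0 counts in BALF, and the list's 16.2 to 30.1 CPM there came mostly from Ear6 at 20.5 CPM, a ribonuclease gene that mexAM held at 12.3 CPM.

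**Figure D2:**
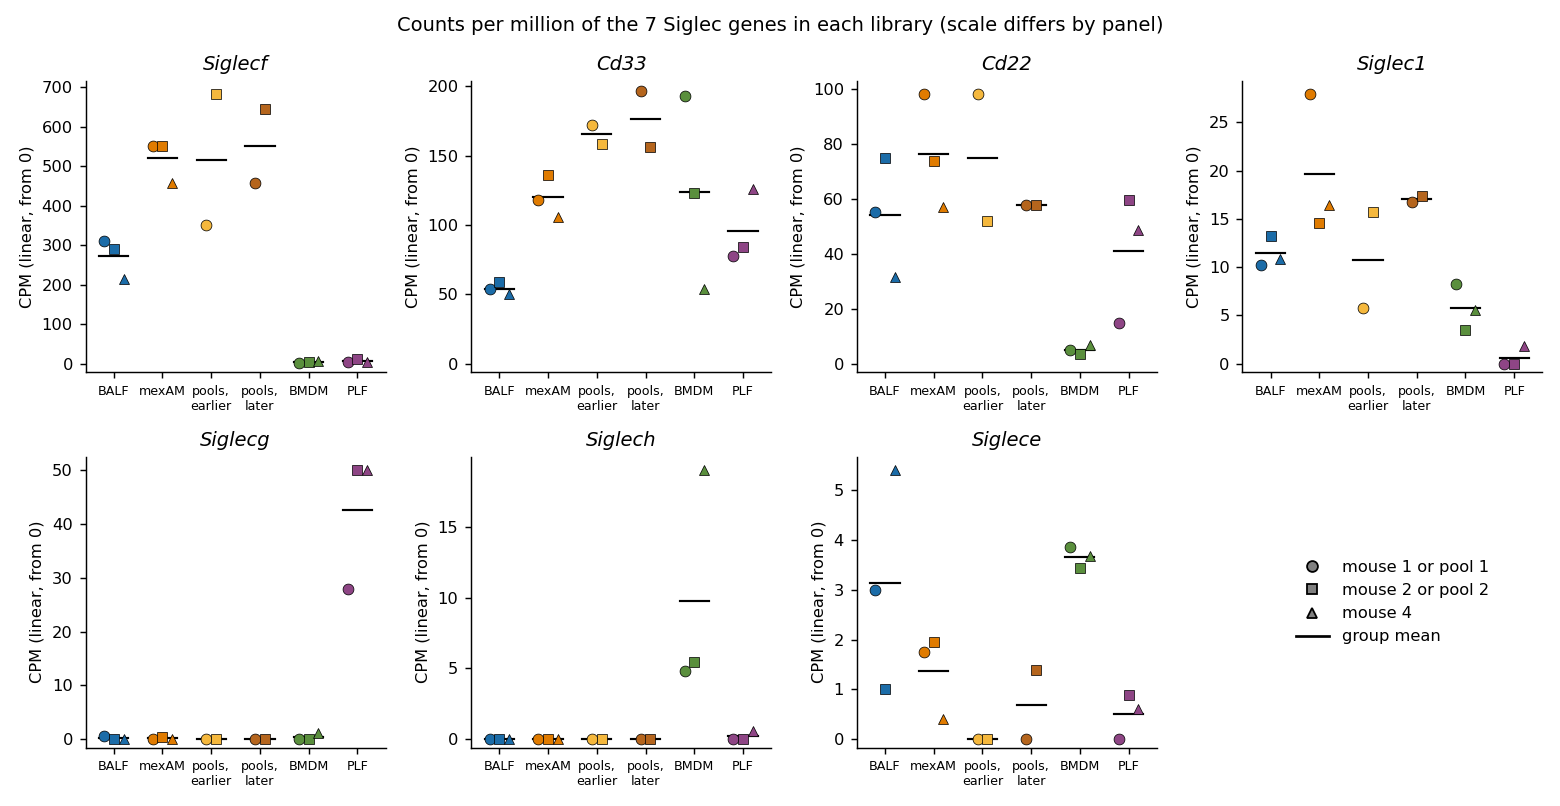
CPM of each Siglec gene on a linear axis from 0, 1 point per library (circle: mouse 1 or pool 1; square: mouse 2 or pool 2; triangle: mouse 4), with the group mean as a bar. Siglecf and Siglec1 are highest in lung-derived cells, Siglecg in PLF and Siglech in BMDM, while Cd33 is present in all groups.

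Cd33, a myeloid Siglec and the namesake of the family's CD33-related branch, was present in every group. BALF held the least, at 53.5, 58.8 and 50.2 CPM in mice 1, 2 and 4. The mexAM libraries held 118, 136 and 106 CPM, PLF held 77.9, 83.8 and 126 CPM, and BMDM ranged widely, at 193, 123 and 53.9 CPM. The pools held 172 and 158 CPM at the earlier and 197 and 156 CPM at the later passages. Every mexAM, PLF and pool library lay above every BALF library, while BMDM of mouse 4 fell inside the BALF range. Cd33 was higher in mexAM than in BALF by +0.95 ± 0.33 on the log2 scale (adjusted p = 0.0434, and 0.0491 with the mouse as a block). Leaving out any 1 library of either group ended that call, with changes of +0.83 to +1.06. In the pools it was higher than in BALF by +1.47 ± 0.35 (adjusted p = 0.00522), a call that was lost with BALF of mouse 1 alone (+1.45, adjusted p = 0.1001). The neutrophil list moved with these changes as well, and its part was not tested.

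Against the cells of other origin Cd33 moved less. It was lower in BALF than in BMDM by -0.90 ± 0.34 on the log2 scale (adjusted p = 0.0453). That call was lost with the mouse as a block (adjusted p = 0.0660), without any BALF library, and without BMDM of mouse 2 or of mouse 1, where the change was -0.44 (adjusted p = 0.316). Among the BMDM libraries, that of mouse 4 held the least Cd33 and the most neutrophil transcripts, 5594 CPM, and their part in the spread was not tested. The pools exceeded PLF by +0.89 ± 0.34 (adjusted p = 0.0359), a call lost with RLE size factors, library totals or DESeq2 (adjusted p = 0.0533 to 0.0579) and without PLF of mouse 1 or 2 or either pool. The fitted differences of mexAM from BMDM (+0.05 ± 0.32, adjusted p = 0.925) and from PLF (+0.37 ± 0.32, adjusted p = 0.346) did not pass, nor did BALF against PLF (-0.58 ± 0.34, adjusted p = 0.192).

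Siglece, an inhibitory Siglec of neutrophils and macrophages, was barely counted, with 46 counts in all 16 libraries. It was at 3.66 ± 0.22 CPM (SD, n = 3) in BMDM, 3.14 ± 2.20 in BALF, 1.37 ± 0.83 in mexAM and 0.50 ± 0.46 in PLF. In the pools 4 counts were found, all in pool 2 at the later passage. BMDM had 19 counts against 2 in PLF, a ratio of 7.89 per count in genes (95% exact interval 1.90 to 69.9, counting error only), and BALF had 13, a ratio of 7.06 over PLF (1.60 to 64.4). The libraries of BMDM and of BALF lay above all PLF libraries. Those of BMDM also lay above the mexAM and pool libraries, while mexAM overlapped BALF and PLF.

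Cd22, best known as an inhibitory co-receptor of B cells, was present in BALF, mexAM, the pools and PLF and low in BMDM. BALF held 55.3, 75.1 and 31.6 CPM in mice 1, 2 and 4, mexAM 98.1, 74.0 and 57.2 CPM, and PLF 14.9, 59.8 and 48.7 CPM. The pools held 98.3 and 51.9 CPM at the earlier and 57.7 and 57.9 CPM at the later passages. BMDM held 4.83, 3.43 and 6.74 CPM, below every other library. Relative to BMDM, Cd22 was higher by +3.99 ± 0.48 on the log2 scale in mexAM (adjusted p = 7.1e-06), by +3.67 ± 0.50 in BALF (adjusted p = 3.0e-05), by +3.01 ± 0.50 in PLF (adjusted p = 0.000238) and by +3.77 ± 0.50 in the pools (adjusted p = 1.4e-05). With 26 counts in BMDM, Cd22 passed the filter through the other groups, so these calls against BMDM carry that limit. The mexAM, BALF and PLF ranges overlapped. The change for mexAM against PLF was +0.97 ± 0.38 (adjusted p = 0.0404), and it was +0.58 without PLF of mouse 1 (adjusted p = 0.122). The call was also lost with RLE size factors, with library totals and with DESeq2 (adjusted p = 0.0502 to 0.0649), and without mexAM of mouse 1 or 2 or PLF of mouse 4. The values of mexAM against BALF (+0.31 ± 0.38, adjusted p = 0.566) and of BALF against PLF (+0.66 ± 0.40, adjusted p = 0.204) did not pass.

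B cell transcripts did not accompany Cd22 in the lung-derived cells. The 14 B cell genes, among them Cd79a and Cd79b of the B cell receptor, Ms4a1 and the transcription factors Pax5 and Ebf1, summed to 4.06 to 4.81 CPM in BALF and 2.90 to 4.94 CPM in mexAM. In BALF 7 of the 14 were at 0 counts, Cd79a among them, and in mexAM 10 were at 0, including Cd79a, Cd79b and Pax5. The pools summed to 1.93 to 12.1 CPM. In each BALF, mexAM and pool library Cd22 alone therefore exceeded the whole list, as the plot of Cd22 against the B cell list shows. BMDM, with the least Cd22, held 110.3 to 146 CPM of the list, of which Ighm, the IgM heavy chain, gave 109.6. PLF of mouse 1 was the lowest PLF library for both Cd22 and Siglecg, although its B cell list stood at 3074 CPM, between the 3276 of mouse 2 and the 2853 of mouse 4. That library held 13.3% of its counts at Gm42418, a ribosomal RNA locus, against 4.08% and 3.81% in the others, and the part of this share in its lower values was not tested.

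**Figure D3:**
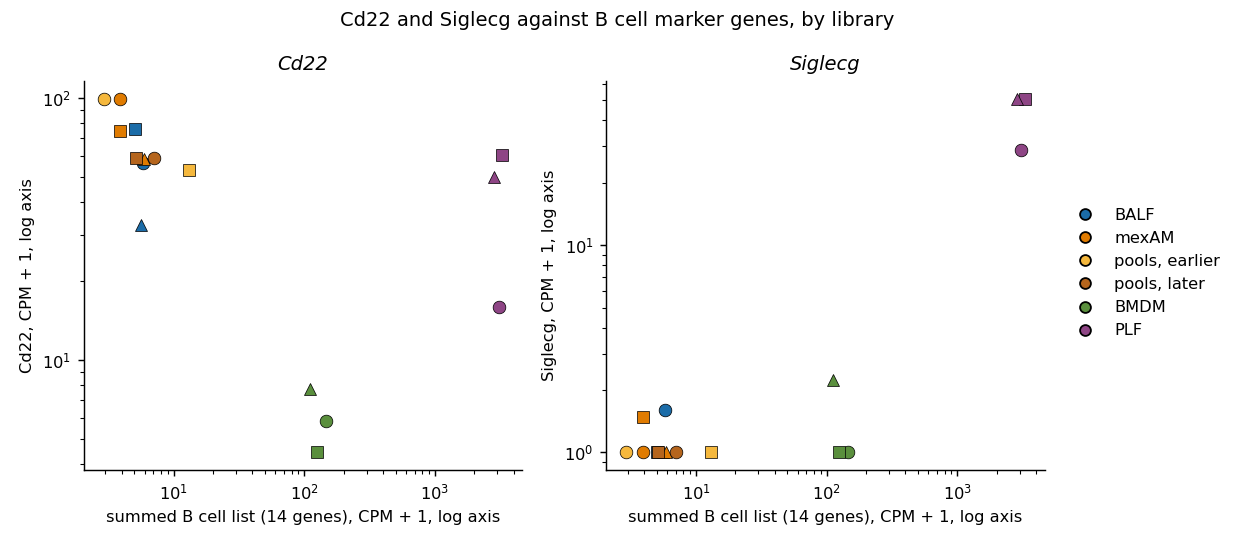
Cd22 (left) and Siglecg (right) against the summed CPM of 14 B cell genes, both as CPM + 1 on log axes, 1 point per library, coloured by group (circle: mouse 1 or pool 1; square: mouse 2 or pool 2; triangle: mouse 4). Cd22 is high in lung-derived libraries with 1.93 to 12.1 CPM of B cell genes, whereas Siglecg is high in PLF, which holds 2853 to 3276 CPM of them.

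Siglecg, the other Siglec known as an inhibitor of B cell receptor signalling, was counted almost entirely in PLF. It was at 27.9, 49.9 and 49.9 CPM there (180 counts), against 2 counts in BMDM, 1 each in BALF and mexAM, and 0 in the pools, where a count of 0 allows up to 0.481 CPM over both pools (3 counts). The PLF level was 261 times that of mexAM (95% exact interval 46.2 to 10353), 166 times that of BALF (29.4 to 6584) and 108 times that of BMDM (29.6 to 902). It was at least 87.4-fold higher than in the pools. Siglecg passed the filter on low counts only through PLF, so its fitted tests against PLF are not given here. PLF also held the B cell genes, and the part of B cells in the PLF level of Siglecg was not tested.

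Siglec1, the macrophage adhesion receptor sialoadhesin, was low everywhere and highest in the lung-derived cells. It was at 27.9, 14.6 and 16.5 CPM in mexAM of mice 1, 2 and 4. BALF of the same mice held 10.2, 13.2 and 10.8 CPM, and BMDM 8.22, 3.43 and 5.52 CPM. The pools held 5.78 and 15.7 CPM at the earlier and 16.8 and 17.3 CPM at the later passages. PLF had 3 counts, all in mouse 4. The mexAM libraries stood above all BALF libraries, and BALF above all BMDM libraries, but mexAM against BALF did not pass (+0.58 ± 0.40, adjusted p = 0.288). Against BMDM it was higher in mexAM by +1.79 ± 0.41 (adjusted p = 0.00183), in the pools by +1.40 ± 0.43 (adjusted p = 0.0122) and in BALF by +1.21 ± 0.46 (adjusted p = 0.0453). The BALF call was lost with library totals as the only scaling (+0.92, adjusted p = 0.125) and without each BALF library or BMDM of mouse 2 or 4. The pool call was lost with the earlier passages alone (+0.93, adjusted p = 0.216), without pool 2 (+1.15, adjusted p = 0.130) and without BMDM of mouse 2 (+1.17, adjusted p = 0.0581). Per count in genes, mexAM held 27.2 times the PLF level (95% exact interval 9.07 to 133.6), BALF 15.9 times (5.10 to 80.2) and BMDM 8.58 times (2.68 to 43.9).

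Siglech, a DAP12-coupled Siglec of plasmacytoid dendritic cells, had 50 counts in all, of which 49 were in BMDM. Mice 1, 2 and 4 held 4.83, 5.49 and 19.0 CPM, so the last stood apart from the others. BALF, mexAM and the pools had 0 counts, which allow up to 0.760, 0.483 and 0.481 CPM, and PLF had 1 count. Against these floors of 3 counts per group, BMDM was at least 12.5-fold higher than BALF, at least 19.6-fold higher than mexAM and at least 19.8-fold higher than the pools. It was 40.7 times PLF (95% exact interval 6.97 to 1639.8). Mouse 4 gave 31 of the 49 counts, and without it the bounds were 6.71-fold for BALF, 10.6-fold for mexAM and 10.6-fold for the pools, and the ratio to PLF was 21.9 (3.45 to 911). The 7 plasmacytoid dendritic cell genes summed to 7.74, 4.80 and 31.9 CPM in BMDM of mice 1, 2 and 4, with the same library highest, and their part in the Siglech level was not tested. That list reached 178 to 356 CPM in PLF, where Siglech had 1 count and where Ly6d, at 181 CPM and also a B cell gene, was the largest item.

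Other Siglec genes outside the 7 were Mag and Siglec15. Mag, the myelin-associated glycoprotein, lies upstream of Cd22 on the same strand, with 18834 bases between the genes. It was at 9.47 ± 3.44 CPM (SD, n = 3) in mexAM, 7.34 ± 8.36 in BALF, 2.70 ± 0.23 in BMDM and 0.50 ± 0.46 in PLF, and at 6.71 to 10.9 CPM in the pool libraries. BALF of mouse 4, at 17.0 CPM, was above the 3.004 and 2.03 CPM of mice 1 and 2. Mag was higher in mexAM than in BMDM by +1.84 ± 0.63 on the log2 scale (adjusted p = 0.0241), a call lost without any BMDM library or mexAM of mouse 1. Per count in genes, mexAM held 19.7 times the PLF level (95% exact interval 5.20 to 166) on 2 PLF counts. Siglec15 had 0 counts in all libraries.

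**Figure D4:**
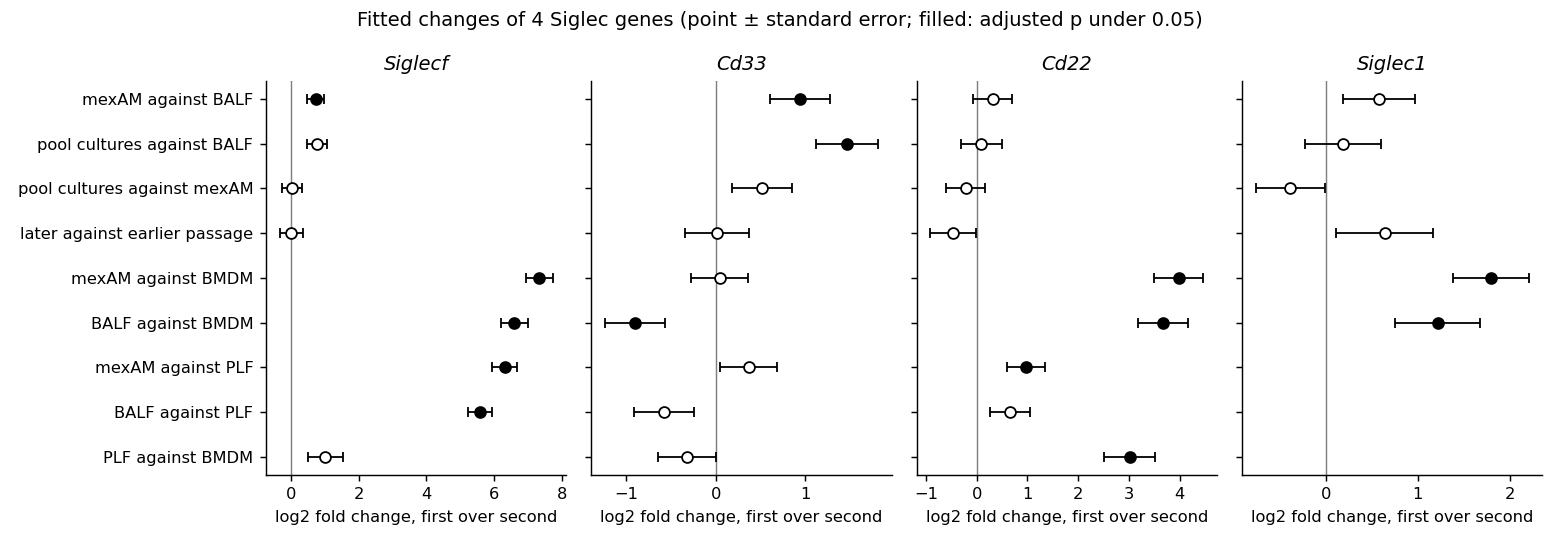
Fitted log2 fold changes (point) with standard errors (line) for Siglecf, Cd33, Cd22 and Siglec1 in 9 comparisons, first named group over the second; filled points had an adjusted p under 0.05, and comparisons with 3 counts or fewer in a group are left out. Siglecf has its largest changes against BMDM and PLF, and no gene is filled for pool cultures against mexAM or for later against earlier passage.

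Counted over the 5 genes that passed the filter, 2 were higher in mexAM than in BALF and none was lower, while 30.0% of all 10011 genes tested were called in that comparison (15.2% higher and 14.8% lower). With the mouse as a block 1 of them, Cd33, was called. For mexAM against BMDM 3 were called, all higher, where 44.6% of all genes were called in either direction and 21.5% were higher. For mexAM against PLF 3 were higher and 1 was lower, where 28.4% of all genes were higher and 29.6% lower (57.9% in all). BALF against BMDM gave 3 higher and 1 lower, beside 18.2% and 19.3% of all genes (37.4% in all). BALF against PLF gave 2 higher and 1 lower, beside 19.5% and 20.8% (40.3% in all). PLF against BMDM gave 2 higher and 1 lower, beside 18.0% and 18.4% (36.5% in all). Between the pools and mexAM edgeR called 0 of the 5, with 0 at an unadjusted p under 0.05 and 0 with DESeq2, where 0.519% of 10602 genes were higher in the pools and 0.179% lower (0.698% in all). The pools had 1 gene, Cd33, higher than BALF (13.6% of all genes higher, 26.0% called in all) and 3 higher than BMDM (21.2% higher, 43.2% in all). Against PLF 3 were higher in the pools and Siglecg was lower, beside 26.4% and 27.0% of all genes (53.4% in all). Since Siglecg passed the filter only through PLF, its calls against PLF follow from the filter. In every other group it had at most 2 counts, so it could hardly be called in the comparisons without PLF. Siglec1 had 3 counts in PLF and passed the filter through other groups, so its calls against PLF carry the same limit. So do the calls of Siglecf against BMDM (17 counts) and PLF (28 counts). Those of Cd22 (26 counts) and Siglec1 (31 counts) against BMDM carry it as well. The 5 genes are too few to set their share apart from these backgrounds. The comparisons share groups, so their calls are not independent. The median log2 change of the 5 was +0.58 in mexAM against BALF, beside +0.01 over all genes. That median is the value of Siglec1, which did not pass, and the 5 include Siglecg at 1 count in each group, so it is no family-wide measure. With library totals as the only scaling, the median over all genes moved to +0.22 for mexAM against BALF and +0.20 for the pools against BALF, and to -0.32 for BALF against BMDM and -0.27 for BALF against PLF. The share of calls that were higher then went from 50.6% to 67.4%, from 52.4% to 67.7%, from 48.5% to 30.5% and from 48.4% to 33.1%. No called change of a Siglec gene turned its direction under any scaling tried.

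No Siglec gene was called between passages. In the edgeR fit of later against earlier passage, 0 of the 5 genes tested were called, with 0 at an unadjusted p under 0.05 and 0 with DESeq2, and 0.0095% of 10527 genes were, which is 1 gene. Siglecg is 1 of these 5, but it had 0 counts in the pools at either passage, so it could not be called. Siglecf gave +0.02 ± 0.35 and Cd33 +0.01 ± 0.36 on the log2 scale, Cd22 gave -0.46 ± 0.45 and Siglec1 +0.64 ± 0.53, with adjusted p-values of 0.784 to 1. Within pool 1 Siglecf was at 351 CPM at passage 8 and 458 at passage 13. Within pool 2 it was at 681 CPM at passage 5 and 643 at passage 10, so the difference between the pools was larger than that between passages. With 1 library per pool and passage, the pool and its passage numbers cannot be told apart.

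The sialic acid machinery, which makes the ligands that Siglecs bind, was read from lists of 9 synthesis and transport genes, 20 sialyltransferases and 7 sialidase and O-acetylation genes. The 20 sialyltransferases had lower summed counts in lung-derived cells than in BMDM and PLF, where St8sia4 was the largest item. They summed to 725 ± 192 CPM (SD, n = 3) in PLF and 526 ± 96.8 in BMDM, against 113 ± 7.88 in BALF and 52.3 ± 8.54 in mexAM, and to 38.1 to 80.5 CPM in the pool libraries. Of 10 tested, 0 were higher and 9 lower in mexAM than in BMDM, where 23.0% of all genes were lower, and 0 were higher and 8 lower in mexAM than in PLF, where 29.6% were. BALF had 6 lower than BMDM (19.3% of all genes) and 6 lower than PLF (20.8%), with 0 higher. In each of these 4 counts 3 genes, St3gal5, St3gal6 and St8sia6, had at most 2 counts in the lung-derived group, so they passed the filter through other groups and had to differ, and the counts are not read against the shares over all genes. Between mexAM and BALF 4 were lower in mexAM (St3gal1, St3gal2, St6galnac4 and St8sia4) and 0 were higher, where 14.8% of all genes were lower. Of these, St3gal2 (17 counts in BALF, 4 in mexAM) and St8sia4 (22 and 5) had few counts in both groups and passed the filter through others. PLF against BMDM gave 3 higher (St3gal1, St3gal6 and St8sia6) and 1 lower (St6galnac6), beside 18.0% and 18.4% of all genes. Between the pools and mexAM edgeR called 0 of 12 (2 at an unadjusted p under 0.05, 0 with DESeq2), beside 0.698% of all genes. At that share 0 of 12 says little about this list.

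St8sia4, which builds polysialic acid, was at 245 ± 74.9 CPM in BMDM and 311 ± 96.6 in PLF, against 5.88 ± 1.98 in BALF and 0.849 ± 0.390 in mexAM. It was lower in mexAM than in BALF by 2.90 ± 0.64 on the log2 scale (adjusted p = 0.00273). That change rests on 22 counts in BALF and 5 in mexAM, and the gene passed the filter through BMDM and PLF. St6gal1, which adds the α2,6-linked sialic acid that CD22 prefers, was at 108 ± 20.02 CPM in BMDM and 79.0 ± 27.1 in PLF, against 12.4 ± 10.1 in BALF and 5.33 ± 4.16 in mexAM. The log2 change was -2.73 ± 0.48 for BALF against BMDM (adjusted p = 0.000368) and -4.17 ± 0.51 for mexAM against BMDM (adjusted p = 9.5e-06). St3gal5, the GM3 ganglioside synthase, had 2 counts each in BALF and mexAM, against 31.7 ± 7.60 CPM in BMDM and 44.4 ± 5.38 in PLF. St8sia6 had 0 counts in BALF, mexAM and the pools and was at 51.8 ± 9.04 CPM in PLF, at least 67.8-fold higher than in BALF and at least 106.7-fold higher than in mexAM.

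Of 7 sialic acid synthesis and transport genes tested, edgeR called 0 between mexAM and BALF (1 at an unadjusted p under 0.05, 1 with DESeq2). In that comparison 30.0% of all genes were called. Against PLF, 4 (Cmas, Nans, Renbp and Slc35a1) were higher and Cmah was lower in mexAM, beside 28.4% and 29.6% of all genes. With 2 counts in mexAM, Cmah passed the filter through other groups. Cmah, which turns N-acetyl- into N-glycolylneuraminic acid, had 0 counts in BALF and 2 in mexAM, against 4.90 ± 1.21 CPM in BMDM and 34.5 ± 9.66 in PLF. PLF was at least 47.0-fold above BALF for this gene. Nans, the sialic acid synthase, was higher in BALF than in BMDM by +1.10 ± 0.22 on the log2 scale (adjusted p = 0.000617) and than in PLF by +1.15 ± 0.22 (adjusted p = 0.000431). Renbp, a renin-binding protein with epimerase activity, was higher in mexAM than in PLF by +2.42 ± 0.25 (adjusted p = 3.7e-07). Slc17a5, the lysosomal sialic acid exporter, was at 55.9 ± 30.6 CPM in BALF and 27.5 ± 10.7 in mexAM, a difference that did not pass (adjusted p = 0.0540).

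Among the genes that remove or modify sialic acid, 2 of 4 tested were higher in mexAM than in BALF and 0 were lower, beside 15.2% and 14.8% of all genes. Neu1, the lysosomal sialidase, was at 169 ± 24.3 CPM in mexAM and 88.3 ± 23.2 in BALF (+0.73 ± 0.22, adjusted p = 0.0213). Siae, the sialic acid O-acetylesterase, was at 53.3 ± 9.84 CPM in mexAM and 22.4 ± 7.41 in BALF (+1.04 ± 0.25, adjusted p = 0.00540). Ctsa, which stabilises Neu1, did not pass between them (-0.01 ± 0.19, adjusted p = 0.978), and Casd1, the O-acetyltransferase, did not either (-0.32 ± 0.30, adjusted p = 0.442). Against PLF, Neu1, Siae and Ctsa were all higher in mexAM, by +1.58 ± 0.23, +2.61 ± 0.28 and +1.31 ± 0.20, and Casd1 was lower (-0.77 ± 0.28, adjusted p = 0.0275). Over all genes 28.4% were higher and 29.6% lower in that comparison.

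**Figure D5:**
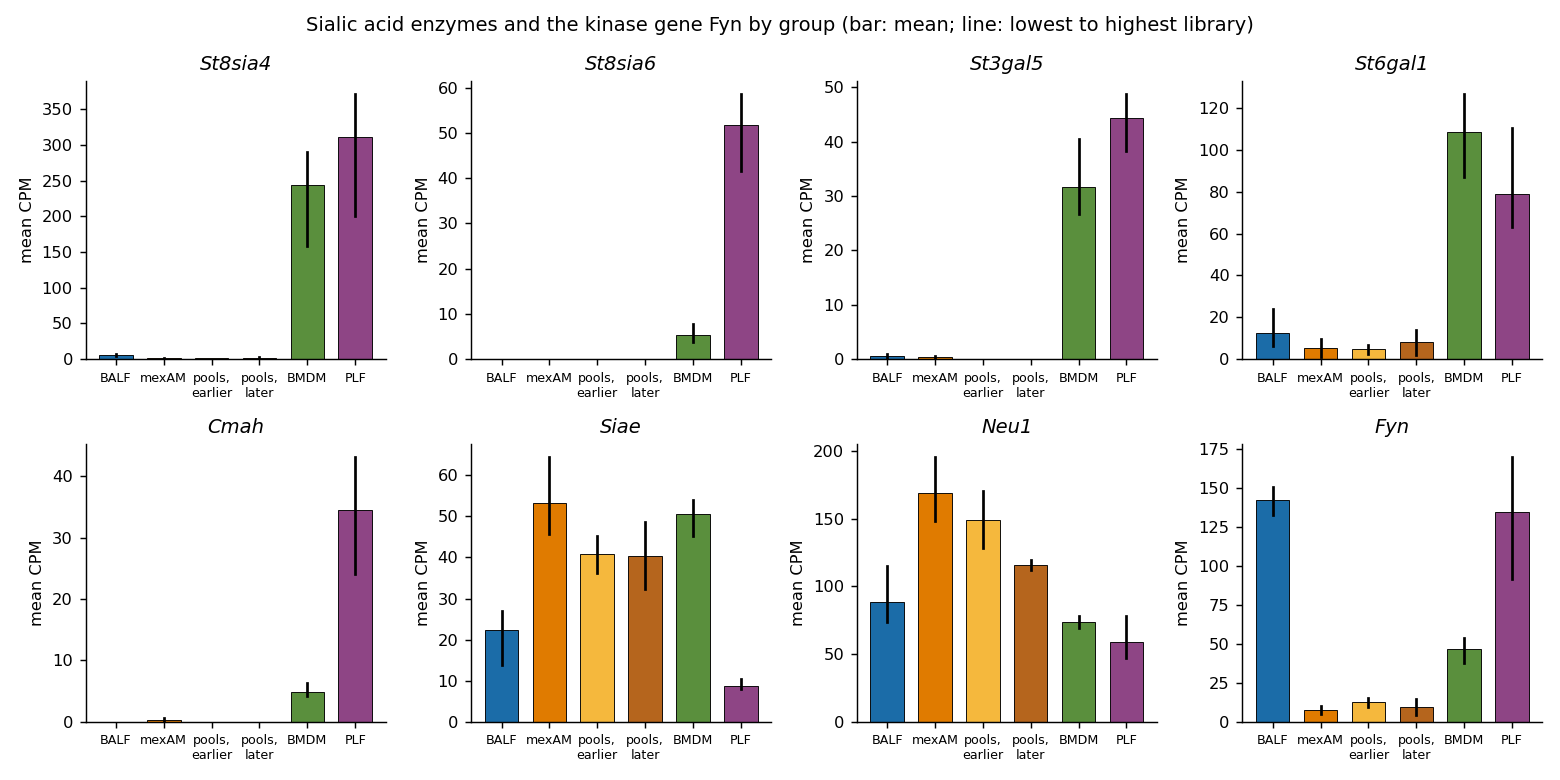
Mean CPM (bar) with the lowest to highest library (line) of 7 sialic acid genes and of the kinase gene Fyn in BALF, mexAM, the pools at earlier and later passages, BMDM and PLF, on linear axes from 0 that differ by panel. The 4 sialyltransferases and Cmah are high in BMDM or PLF, Siae and Neu1 are higher in mexAM than in BALF, and Fyn is high in BALF and low in the cultured lung cells.

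The 16 signalling genes that act beneath Siglecs, which hold SHP-1, Src-family kinases and the adaptor DAP12, gave 1 higher and 1 lower of 15 tested in mexAM against BALF, beside 15.2% and 14.8% of all genes. The lower one was Fyn, a Src-family kinase, at 133 to 151 CPM in BALF and 4.87 to 9.87 CPM in mexAM (-4.49 ± 0.31, adjusted p = 2.2e-08). The pools held Fyn at 4.51 to 15.4 CPM, BMDM at 46.5 ± 8.19 and PLF at 135 ± 39.6. Fgr, a myeloid Src-family kinase, was higher in mexAM than in BMDM by +2.38 ± 0.54 (adjusted p = 0.00305). Its difference from PLF, +1.03 ± 0.51, did not pass (adjusted p = 0.0996). With the mouse as a block the difference was +1.21 and passed (adjusted p = 0.0285). Cbl, a ubiquitin ligase, was lower in mexAM than in BMDM (-1.68 ± 0.23, adjusted p = 1.3e-05). Socs3, a cytokine signalling inhibitor, was highest in PLF, at 90.9 to 367 CPM. The higher one was Tyrobp, which encodes DAP12 (+0.62 ± 0.19, adjusted p = 0.0236). It was the most abundant gene of the list in every group, at 1796 CPM on average in mexAM, 1013 in BALF, 1070.1 in BMDM and 637 in PLF.

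The genes whose pattern over the 16 libraries was most like that of a Siglec gene were found by the root mean square difference of log2 CPM, each gene centred on its own mean, over 8953 named protein coding genes. The closest to Siglecf were Plet1 (0.43), Car4 (0.57) and Lilra5 (0.61), against a median difference of 3.15 over all genes. Car4, a carbonic anhydrase used as an alveolar macrophage marker, was at 305 CPM in BALF and 566 in mexAM. For Siglecg they were Fcrl5 (0.29), Gpr174 (0.32) and Lax1 (0.34), each with 30.7 to 32.9 CPM in PLF and at most 0.204 CPM elsewhere. For Cd33 they were Paics (0.32), Efcab14 (0.35) and Smim10l1 (0.37), for Cd22 Chpf (0.47), Dusp5 (0.50) and Nedd9 (0.57), and for Siglec1 Hpcal1 (0.47), Nek6 (0.48) and Slc29a1 (0.51). The median over all genes was 0.83 for Cd33, so its nearest genes stand less far from the rest than those of Siglecf. Siglece and Siglech were under 10 CPM in every group and were not matched.

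Neighbours on chromosome 7 were read in the same way. Between the start of Siglecf and the end of Siglece lie 16 protein coding genes, of which 4 are the Siglec genes and 12 are others. Of the others, Etfb and Zfp719 reached 10 CPM in a group. Etfb, a mitochondrial electron transfer protein, was at 214 CPM in mexAM and 84.2 in BALF, with 42.8 in BMDM and 23.1 in PLF, so it had more counts in lung-derived cells than elsewhere, as Siglecf did. Zfp719 did not share this pattern. It was highest in PLF, at 14.8 CPM, against 7.32 in mexAM, 5.47 in BMDM and 3.52 in BALF. Siglecg, which starts between Siglecf and Etfb on the same strand, had 1 count each in BALF and mexAM.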

How the data were processed

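RNA was measured in 16 libraries made with the QuantSeq 3′ FWD kit and its UMI module from 150 ng of total RNA, with 15 amplification cycles and 65 bp single-end reads, per the labels' protocols. The authors' deposited files hold raw counts per Ensembl gene, on GRCm38 (mm10) per the submitters' processing notes. Not given in the sources used here were the aligner, the counting program and any collapsing of reads by UMI, and intervals and floors cover counting error only. The 5 lines per file that name no gene (11.2% to 30.4% of counts) were left out. Replicates are mice or culture pools, and p-values measure only the spread between these samples.

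The test was the robust quasi-likelihood F test of edgeR 4.0.16 (R 4.3.3), after filterByExpr and TMM scaling. Mice 1, 2 and 4 entered a fit of 12 libraries with 10011 genes and 8 residual degrees of freedom. Pool comparisons used 14 columns with the passages of a pool summed (10602 genes, 9 degrees of freedom), and passages were compared over 16 libraries (10527 genes, 10 degrees of freedom). Calls had a Benjamini-Hochberg adjusted p under 0.05, adjusted within each comparison across every gene tested. Standard errors were derived from the log2 change and its F statistic. CPM were scaled to the counts in genes of each library. With 0 counts in a group the fold is a bound against 3 counts over the group, and with 1 to 3 counts the text prints a ratio and its exact 95% interval (Clopper-Pearson). A prior count of 2 entered the log2 CPM.

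The mouse numbers name the same animal per the labels. Same-mouse correlations of deviations from group means ran from -0.118 to 0.220 (median -0.0207), with 2 of 18 over 0.1, and a fit with the mouse as a block was run beside the main one. Members, lists, motifs and tests were chosen with earlier results of these data known. All 7 members were named in every comparison. From each sialic acid and signalling list the 4 genes with the widest range of group means were named, among those with at least 20 CPM in their highest group, and for each member with at least 10 CPM the 3 genes nearest in pattern. Other called list genes were named after their values were seen. The cell type lists that are named without values in the report summed as follows in BALF, mexAM, BMDM and PLF: peritoneal macrophage 104, 122, 58.9 and 12315 CPM; monocyte and bone marrow derived macrophage 75.3, 17.0, 14082 and 8461 CPM; conventional dendritic cell 8.38, 0.993, 9.65 and 72.2 CPM; T and NK cell 0.739, 0.687, 13.8 and 96.3 CPM; lung epithelium 20.0, 0.955, 0.779 and 0 CPM. Alternatives were other scalings, no filter, DESeq2 1.42.0, the block, other denominators, single passages and leaving out each library.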

Additional observations from a re-analysis of the deposited data

Results flagged for a closer look

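The later-to-earlier passage ratios of Siglecf and Cd22 lay on opposite sides of 1 in the 2 pools, but both intervals of pool 2 include 1. For Siglecf the later passage held 1.31 times the earlier CPM in pool 1 (95% exact interval 1.15 to 1.49) and 0.944 times in pool 2 (0.859 to 1.04). For Cd22 the ratio was 0.587 in pool 1 (0.436 to 0.790) and 1.11 in pool 2 (0.793 to 1.60). Each pool had 1 library per passage, the intervals cover counting error only, and the difference between the pools was not tested. Siglec1 gave 2.90 (1.16 to 8.65) in pool 1 and 1.10 (0.591 to 2.21) in pool 2. Cd33 gave 1.14 (0.943 to 1.38) in pool 1 and 0.986 (0.810 to 1.21) in pool 2.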

How the results depend on the processing

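Over the 5 Siglec genes that passed the filter and Mag, there were 801 alternative values. Of these, 691 kept their direction and their side of the threshold, 58 lost a call and 11 gained one. Another 41 were sign changes of values not called in either setting, and 0 called values turned direction. The tally includes Siglecg and Siglec1 against PLF, whose calls follow from the filter, and Siglecg elsewhere, which had too few counts to be called. It therefore overstates how much was open to change. The Siglecf changes of BALF, mexAM and the pools against BMDM and PLF kept their calls under every alternative run. So did the Cd22 changes of BALF, mexAM, PLF and the pools against BMDM. Both genes passed the filter through the groups where they were high, so these kept calls are not independent support. With the replicate block the family members called in mexAM against BALF were 1 in place of 2, and the genes called between passages were 0 in place of 1. Apart from Cd33 in BALF against BMDM, the block changed no other call of a Siglec gene. Pools carry no mouse number, so their comparisons with mice have no paired fit. With BALF of mouse 1 alone, an alternative chosen after seeing the data, 0 members were called in mexAM against BALF and 0 in the pools against BALF, and the genes called were 1318 and 1403, with 2429 in BALF against BMDM; fewer samples enter these fits. Without the filter on low counts, 5 members were called in PLF against BMDM, 5 in the pools against BMDM and 2 in the pools against BALF, and 380 genes were called in the pools against mexAM and 80 between passages. With DESeq2 the members called in the pools against BALF were 2, and the genes called in the pools against mexAM and between passages were 187 and 32. Library totals also gave 2 members in the pools against BALF. For the pools against mexAM the genes called were 188 with the later passage alone and 11 with the earlier one. The cause of these shifts was not tested. Leaving out 1 library or pool at a time gave 0 to 1 members in mexAM against BALF, 2 to 3 in BALF against BMDM, 3 to 5 in PLF against BMDM, 3 to 4 in mexAM against PLF and in the pools against PLF, 1 to 2 in the pools against BALF and 2 to 4 in the pools against BMDM. Genes called ranged from 6 to 99 in the pools against mexAM, 1604 to 2427 in the pools against BALF and 0 to 4 between passages. Where a group was left with 1 library, it was assumed to vary like the others. In the shallowest library 1 count is worth 1.21 CPM, which limits what Siglece, Siglech and Siglec1 can show.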
